A study of Mus musculus with 4 samples.

Results

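IL-6 and oncostatin M signalling was followed through 8 genes of the 31053 features in single-cell count matrices from mouse blood and ear skin. The genes were chosen by symbol: the ligands Il6, Osm and Lif, the receptor chains Il6ra, Osmr and Il6st, the transcription factor Stat3 and its feedback inhibitor Socs3. All 8 were found. The mice were C57BL/6J, 6 to 8 weeks old, and were given rabbit IgG at 250 µg per injection, with 3 injections in each of 2 weeks. In the EBA groups this was antigen affinity purified vWFA2-COL7 IgG, which targets collagen VII and models the blistering disease epidermolysis bullosa acquisita. In the IgG groups it was control rabbit IgG. Cells of 3 mice were pooled for each library, so each of the 4 groups, named EBA or IgG skin and EBA or IgG blood, was 1 library, with no replicate and no test. Red cells of the blood were lysed, and skin biopsies were digested with enzymes at 37 °C, so tissue and digestion cannot be told apart.

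The cytokines of this family signal through a shared chain, gp130, the product of Il6st. IL-6 first binds its own receptor, the product of Il6ra, whereas oncostatin M in the mouse acts mainly through a pair of gp130 and the product of Osmr, which many stromal and epithelial cells carry. Receptor engagement activates JAK kinases and STAT3, STAT3 induces Socs3, and the SOCS3 protein binds gp130 and dampens the signal. In skin, IL-6 and oncostatin M are known for acute-phase and wound responses of fibroblasts and keratinocytes.

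Socs3 is the gene at which this pathway feeds back, so the letters just upstream of its start are shown, beside those of the ligand gene Il6. Promoter sequences came from RefSeq on GRCm38.p6, and 7 of the 8 genes were matched. The 250 bases upstream of the start were searched on both strands for the STAT motif TTCNNNGAA and for the AP-1 motif TGAGTCA, and matches are in capitals. The Socs3 stretch (chr11:117969367-117969616, minus strand) held 1 STAT match, TTCTTAGAA, whose first base lies 154 bases upstream of the RefSeq start. The Il6 stretch (chr5:30012864-30013113, plus strand) held 1 AP-1 match at 249 bases upstream.
Socs3: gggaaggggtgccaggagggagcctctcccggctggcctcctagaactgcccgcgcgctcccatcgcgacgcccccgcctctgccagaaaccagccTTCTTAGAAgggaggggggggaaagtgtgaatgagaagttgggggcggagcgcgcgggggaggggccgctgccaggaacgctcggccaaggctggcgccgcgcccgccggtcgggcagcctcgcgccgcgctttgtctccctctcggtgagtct
Il6: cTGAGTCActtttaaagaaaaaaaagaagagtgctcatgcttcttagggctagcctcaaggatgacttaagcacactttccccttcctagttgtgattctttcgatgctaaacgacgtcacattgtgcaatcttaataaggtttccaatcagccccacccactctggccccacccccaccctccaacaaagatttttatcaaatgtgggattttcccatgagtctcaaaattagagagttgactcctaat
Of 32851 promoters of the same length, 7.02% held the STAT motif and 4.46% the AP-1 motif. Lif held an AP-1 match at 228 bases upstream, and the stretches of Il6ra, Il6st, Stat3 and Osmr held neither motif. On GRCm38 the genes lie at chr11:4236420-4241026 (Osm), chr11:4257557-4272514 (Lif), chr11:117966079-117970047 (Socs3), chr11:100885098-100939540 (Stat3), chr5:30013114-30019981 (Il6), chr3:89864059-89913196 (Il6ra), chr13:112464070-112510086 (Il6st) and chr15:6813577-6874969 (Osmr), so Osm and Lif are neighbours. These spans are GENCODE genes, which for Socs3, Osmr and Lif reach further upstream than the RefSeq start. The stretches of Socs3 and Osmr lie within the GENCODE span, and that of Lif (chr11:4257318-4257567) overlaps its first bases.

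The libraries held 22705634 to 90829463 UMIs (deduplicated transcript counts) in 5008 to 6770 barcodes, of which 3325 to 5106 were kept. Pairs of libraries shared 5 to 9 barcode sequences. Barcodes were clustered without the 8 genes and the pathway lists, and a cluster was named for the cell type whose markers it held, with the ending "-like". Markers of the name were not among the 10 leading genes in every named cluster: cluster 30, which holds the neutrophil-like cells of EBA skin, had none there, although all 8 neutrophil markers were detected in it. None were among the 10 leading genes of T cell-like cluster 11, fibroblast-like cluster 17, keratinocyte-like clusters 19, 20 and 22 or both dendritic cell-like subclusters. For each class, UMIs were summed over its barcodes in a library and scaled to 1000000 UMIs (CPM). Ratios of 2 sums carry an exact 95% interval that covers counting error only, not differences between mice or preparations. A gene was called higher or lower at a ratio of 2 or more, or 0.5 or less, with an interval that excludes 1. Calls need 10 UMIs over both sums, 10 CPM in the higher one and 20 barcodes in each. In some comparisons all measured genes were shifted together. Where their median log2 ratio lay more than 0.1 from 0, the ratio relative to that median is given where it changes a call or bears on the size.

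Osm, the oncostatin M ligand, was read mainly from myeloid cells in EBA blood and in both skin libraries. Of the Osm UMIs in kept barcodes, IgG blood held 122, EBA blood 661, IgG skin 140 and EBA skin 1223. In EBA skin, 36.9% of them came from neutrophil-like barcodes (34.2 to 39.7%), 25.3% from unnamed phagocytes (266 barcodes of clusters that rested on too few markers of 1 type, led by genes such as Arg1 and Mmp12) and 23.9% from macrophage-like barcodes. In IgG skin, which held 1 neutrophil-like barcode, macrophage-like barcodes carried 73.6% of the Osm UMIs and the unnamed phagocytes 12.9%. Skin Osm was thus read from macrophage-like cells and unnamed phagocytes in both libraries, with neutrophil-like cells beside them in EBA skin. In blood, neutrophil-like cells carried 50.8% of the Osm UMIs in IgG (41.6 to 59.98%) and 59.2% in EBA (55.3 to 62.9%). In IgG blood, T, B and NK cell-like barcodes carried 20.5%, 15.6% and 6.56% of the 122 UMIs, at 3.55, 2.40 and 8.63 CPM.

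Per cell class, Osm stood at 134 CPM (121 to 146) in the 879 neutrophil-like barcodes of EBA skin, at 41.1 CPM (37.1 to 45.4) in 814 of EBA blood and at 50.6 CPM (38.8 to 64.8) in 455 of IgG blood. The skin level was above both blood levels and the intervals of the blood levels overlapped. Skin over blood was 3.25-fold in EBA mice (2.83 to 3.73), or 2.72-fold relative to all measured genes, in a comparison in which 55.1% of genes were called and in which Osm was the 1 called of 4 measured members. EBA over IgG blood was 0.813-fold (0.621 to 1.08), which was not called, where 58.6% of all genes were called. Within EBA blood, cluster 8, led by the mature neutrophil gene Retnlg with platelet genes, held 47.3 CPM, and cluster 18, led by the granule genes Camp, Ngp and Ltf, held 36.04 CPM. Both were below the skin level. Cluster 8 of IgG blood stood at 27.5 CPM from 4 UMIs, so that EBA over IgG within it was 1.72-fold (0.662 to 6.38), not called, and 3.04-fold relative to all genes of that comparison, which was called. Neutrophil-like barcodes fell mostly into cluster 6 in IgG blood, clusters 8 and 18 in EBA blood and cluster 30 in EBA skin, so these comparisons set different clusters against each other.

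The share of neutrophil-like barcodes with an Osm UMI was also highest in EBA skin once depth was matched. Thinned to 1000 UMIs per barcode, 8.83% of 815 barcodes of EBA skin (6.98 to 11.0%), 4.96% of 807 of EBA blood and 3.95% of 430 of IgG blood held one. Without thinning the shares were 26.5%, 31.1% and 10.1%, at median depths of 3022, 9912.5 and 2410 UMIs. Without thinning, 1.96% of keratinocyte-like barcodes of EBA skin held an Osm UMI at a median depth of 34569 UMIs, against 26.5% of neutrophil-like ones. After thinning, 0 of 895 keratinocyte-like barcodes held one (exact upper bound 0.411%). Thinning such deep barcodes also removes most of their free RNA, so the thinned value does not give the background at the neutrophil-like depth. Immediate early and heat shock genes moved with the tissue. Of the 14 measured in neutrophil-like cells, 11 were higher in EBA skin than in EBA blood and 1 was lower, with a median log2 ratio of 3.01 against 0.25 for all genes; their part in the Osm difference was not tested.

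Macrophage-like cells kept a similar Osm level in both skin libraries. It was 102 CPM (90.2 to 114) in 347 barcodes of EBA skin and 123 CPM (101 to 150) in 121 of IgG skin, 0.823-fold (0.655 to 1.04), which was not called; 9.23% of all genes were called in that comparison. The unnamed phagocytes stood at 137 CPM in EBA skin and 138 CPM in the 20 barcodes of IgG skin. Among barcodes with under 1% of their UMIs from the 8 neutrophil markers, Osm was 101 CPM in macrophage-like cells and 129.5 CPM in unnamed phagocytes of EBA skin. The 16 basophil-like barcodes of EBA skin had the highest Osm level of any class, 1164 CPM from 67 UMIs, of which 1 barcode held 35.8%. In EBA blood, 6 basophil-like barcodes with 20068 UMIs in all held 13 of the 661 Osm UMIs. Mast cell-like cells of EBA skin held 149 CPM (14 UMIs), and dendritic cell-like cells held 39.3 CPM in EBA skin and 5.83 CPM in IgG skin, from 32 and 3 UMIs.

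Monocyte-like cells of blood read 26.6 CPM of Osm in EBA (240 UMIs, 387 barcodes) and 3.77 CPM in IgG (8 UMIs, 255 barcodes), a ratio of 7.04 (3.52 to 16.5) in a comparison with 24.9% of genes called. Neutrophil transcripts moved with it. The 8 neutrophil markers summed to 164163 CPM in these EBA barcodes and to 5728 CPM in the IgG ones, beside 386930 CPM in the neutrophil-like cells of EBA blood, and Ly6g, which marks neutrophils, stood at 335 and 1.89 CPM. Of the 387 EBA barcodes, 273 had 1% or more of their UMIs from the neutrophil markers, and these held all 240 Osm UMIs. The other 114 barcodes held 0 Osm UMIs in 1218815, which allows up to 2.46 CPM at 3 counts. Osm of monocyte-like EBA barcodes was thus found only beside neutrophil transcripts, and the 1% limit was chosen after seeing the data.

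**Figure D1:**
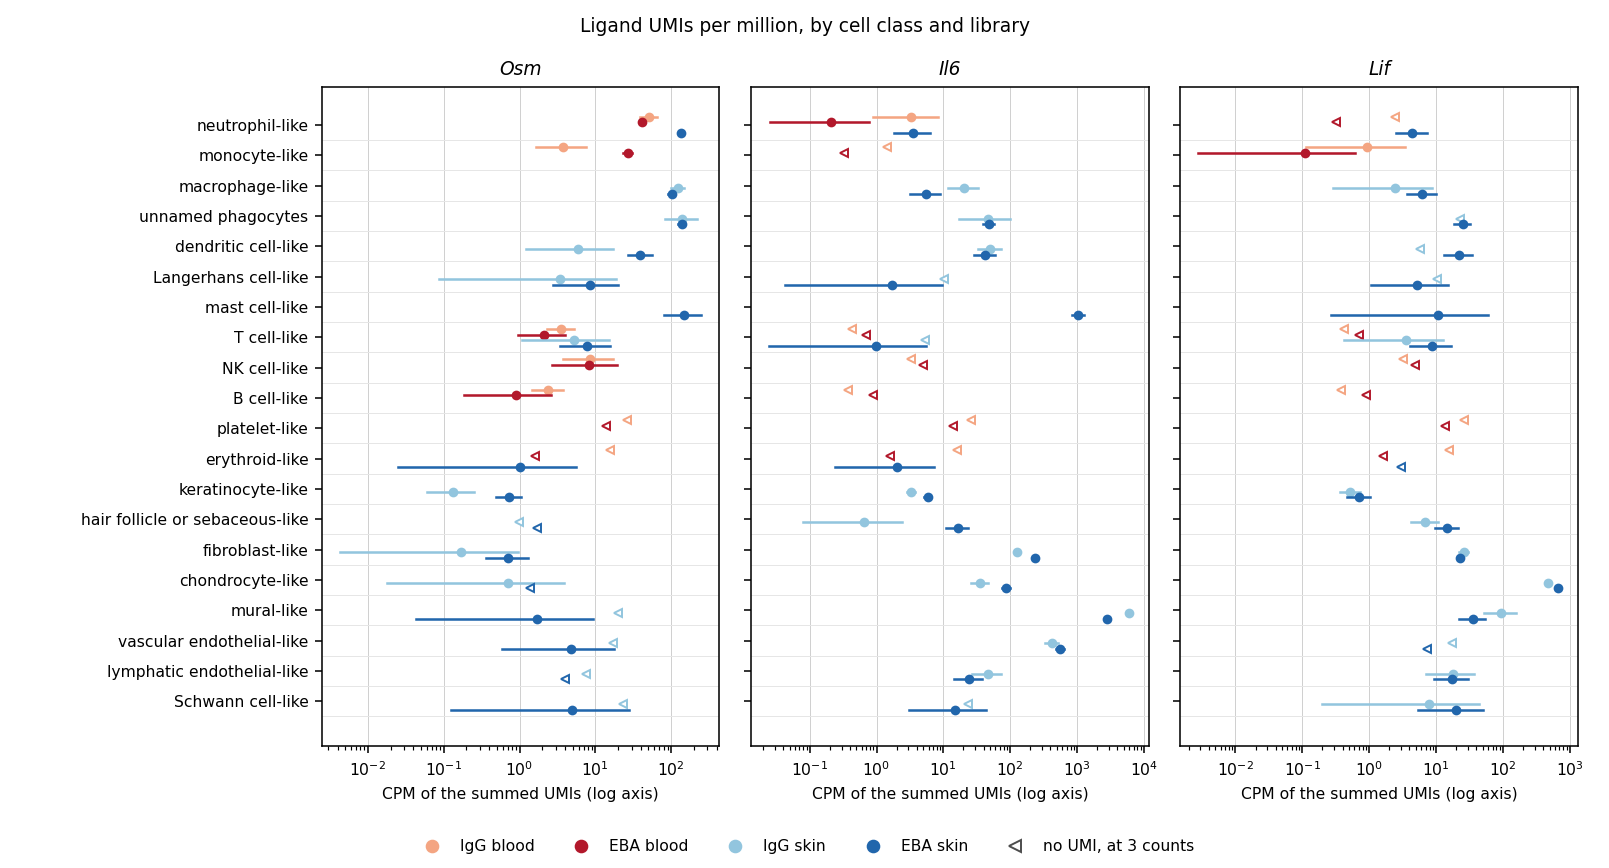
Levels of Osm, Il6 and Lif by cell class and library (CPM on a log axis; points are class sums, lines 95% Poisson intervals, open triangles mark classes with no UMI at the level of 3 counts; classes of 20 or more barcodes). Osm is at 102 to 138 CPM in the phagocyte classes and the neutrophil-like cells of EBA skin, Il6 peaks at 2839 and 5901 CPM in mural-like cells, and Lif at 671 and 475 CPM in chondrocyte-like cells.

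Il6, the gene of interleukin 6, was a transcript of skin and of stromal cells. Both blood libraries held 9 UMIs each, against 2363 in IgG skin and 7370 in EBA skin. Of these 9, basophil-like barcodes held 5 in IgG blood (5 barcodes) and 7 in EBA blood (6 barcodes). Fibroblast-like cells carried 49.7% of the Il6 UMIs of EBA skin (48.5 to 50.8%) and 31.6% of those of IgG skin. Mural-like cells, which are pericytes and smooth muscle cells of vessels named here from Rgs5, Acta2 and Myh11, carried 22.8% and 37.2% while making up 0.919% and 0.548% of the kept barcodes. An unnamed cluster of endothelial and mural genes carried 8.02% and 13.1%. The largest share was thus held by fibroblast-like cells in EBA skin and mural-like cells in IgG skin. These shares reflect class size and depth beside level, and the part of each was not tested. Fibroblast-like barcodes summed to 15384178 UMIs in EBA and 5877007 in IgG skin.

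By level per class, mural-like cells stood above fibroblast-like cells in both skin libraries. Mural-like cells held 2839 CPM (2705 to 2978) in the 38 barcodes of EBA skin and 5901 CPM (5517 to 6304) in the 28 of IgG skin, a ratio of 0.481 (0.443 to 0.523), called lower, with 11.0% of all genes called. Single barcodes held 18.2% and 24.3% of these UMIs. The unnamed cluster of endothelial and mural genes held 2239 and 2144 CPM from 13 and 17 barcodes. Vascular endothelial-like cells held 560 and 418 CPM, which was not called (ratio 1.34, 1.02 to 1.77, with 9.47% of genes called).

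In fibroblast-like cells Il6 was 238 CPM (230 to 246) in EBA and 127 CPM (118 to 137) in IgG skin, 1.87-fold (1.73 to 2.03) and under the threshold of 2, with 6.43% of genes called. The class was made of 2 clusters in different proportions, and both were past the threshold on their own. Cluster 16, led by Clec3b and Cilp, rose from 169 to 348 CPM (2.06-fold, 1.89 to 2.25, with 5.63% of genes called). Cluster 17, led by Sfrp2, Crabp1 and Lrrc15, rose from 21.6 to 176 CPM (8.13-fold, 5.85 to 11.6, with 9.67% called). It made up 13.8% of the fibroblast-like barcodes of IgG skin and 49.9% of those of EBA skin. Il6 in fibroblast-like cells was thus higher in EBA skin within each cluster, while the class as a whole contained more of the cluster with the lower level.

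Other skin classes had little Il6 or few barcodes behind it. Basophil-like cells of EBA skin held 7941 CPM from 457 UMIs of 16 barcodes, and mast cell-like cells 1031 CPM in EBA (41 barcodes) and 686 CPM in IgG skin (12 barcodes). Macrophage-like cells held 5.56 CPM in EBA and 20.4 CPM in IgG skin (0.273-fold, 0.129 to 0.575, called lower), and keratinocyte-like cells under 6 CPM in both. Chondrocyte-like cells of the ear cartilage read 87.4 and 34.8 CPM, 2.51-fold (1.83 to 3.50, with 8.21% of genes called), but 1 barcode held 29.1% of the EBA UMIs and 1 held 66% of the IgG UMIs. In hair follicle or sebaceous-like cells, where 12.2% of genes were called, 1 barcode held 96.6% of the 29 Il6 UMIs of EBA skin against 2 UMIs in IgG skin.

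Lif, the leukaemia inhibitory factor gene next to Osm, had a different source again. Chondrocyte-like cells carried 71.7% of its 2024 UMIs in EBA skin and 74.4% of its 917 UMIs in IgG skin, at 671 CPM (637 to 707) and 475 CPM (440 to 512). The ratio of 1.41 (1.29 to 1.55) was not called. Fibroblast-like cells held 23.1 and 26.03 CPM (not called), and mural-like cells 35.4 and 93.9 CPM, called lower from 21 and 14 UMIs. Hair follicle or sebaceous-like cells held 14.7 and 6.89 CPM (2.13-fold, 1.15 to 3.98, called higher), with 1 barcode holding 50% of the EBA UMIs. The blood libraries held 2 Lif UMIs in IgG and 1 in EBA.

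**Figure D2:**
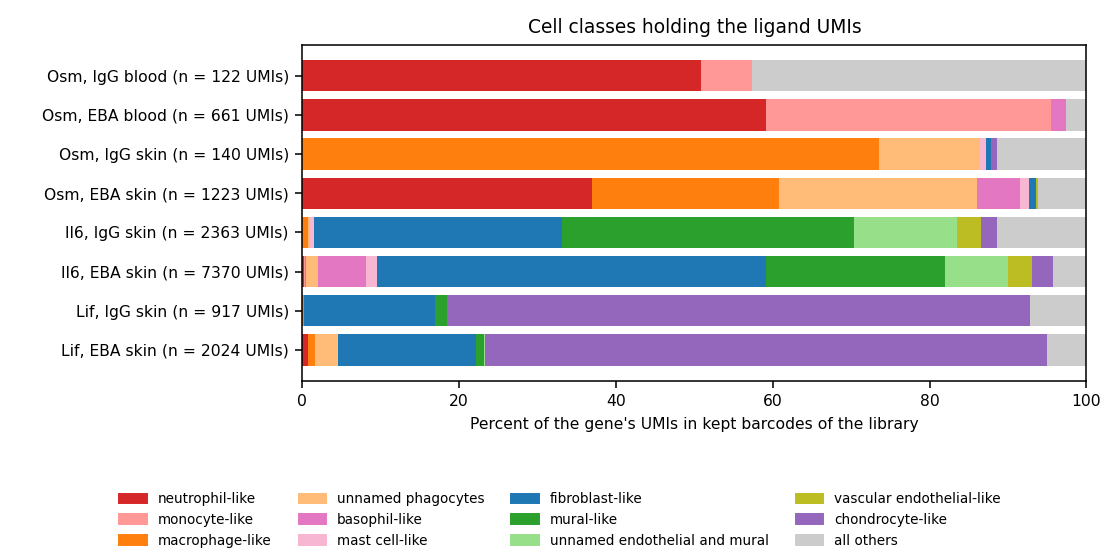
Share of each ligand's UMIs by cell class (stacked bars, 1 for each gene and library with over 100 UMIs; percent of the gene's UMIs in kept barcodes). Osm of EBA skin is split among neutrophil-like (36.9%), unnamed phagocytes (25.3%) and macrophage-like cells (23.9%), and Il6 among fibroblast-like (49.7%) and mural-like cells (22.8%).

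Osmr, the oncostatin M receptor chain, was a skin transcript. Each blood library held 1 UMI, and the neutrophil-like, monocyte-like, T, B and NK cell-like classes of blood held none, whereas IgG skin held 3666 and EBA skin 4190. Neutrophil-like cells of EBA skin stood at 2.37 CPM (8 UMIs), so the classes with most of the Osm had next to no Osmr. Levels in EBA and IgG skin were 339 and 248 CPM in mural-like, 190 and 163 CPM in chondrocyte-like, 135 and 109 CPM in fibroblast-like, 79.1 and 63.7 CPM in lymphatic endothelial-like, 92.1 and 229 CPM in vascular endothelial-like, 56.4 and 62.7 CPM in hair follicle or sebaceous-like and 30.3 and 35.9 CPM in keratinocyte-like cells. In EBA skin the level of vascular endothelial-like cells overlapped that of lymphatic endothelial-like cells, and the latter that of hair follicle or sebaceous-like cells. The intervals of the other neighbours in order of level among these 7 classes did not overlap.

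Between treatments Osmr differed past the threshold in 1 class. It was 92.1 CPM (65.2 to 126) in EBA and 229 CPM (164 to 312) in IgG skin in vascular endothelial-like cells, 0.402-fold (0.251 to 0.643), from 38 and 40 UMIs. Fibroblast-like cells were at 1.24-fold (1.13 to 1.36) and keratinocyte-like cells at 0.843-fold (0.786 to 0.904), neither called; 6.85% of genes were called in the latter comparison. Although the levels were alike, the makeup of the Osmr UMIs was not. Fibroblast-like cells carried 49.6% of them for EBA against 17.5% for IgG skin, and keratinocyte-like cells 28.6% against 66.3%. These classes held 20.03% and 14.5%, and 22.2% and 67.2%, of the kept barcodes. Depth differed too, with fibroblast-like medians of 16504.5 (EBA) and 5805.5 UMIs (IgG) and keratinocyte-like medians of 34569 and 13637. Fibroblast-like barcodes summed to 15384178 of 73239968 UMIs for EBA and 5877007 of 81303359 for IgG. Osmr shares thus reflect class size and depth beside level, and the part of each was not tested.

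Il6st, the gp130 chain shared by all 3 cytokines, was highest in mural, endothelial, nerve and connective tissue classes of skin. EBA skin over IgG skin, it was 629 and 255 CPM in mural-like (2.47-fold, 1.76 to 3.54, called higher), 405 and 607 CPM in vascular endothelial-like, 359 and 265 CPM in Schwann cell-like, 311 and 224 CPM in lymphatic endothelial-like, 226 and 179 CPM in fibroblast-like and 61.9 and 67.5 CPM in keratinocyte-like cells. None of the last 5 was called. T cell-like cells differed by tissue and treatment: 49.2 CPM in EBA blood, 91.3 in IgG blood, 100.3 in EBA skin and 38.5 in IgG skin. EBA over IgG skin was 2.60-fold (1.63 to 4.33) over the class, with 17.6% of genes called, 3.20-fold (1.40 to 9.004) in cluster 11, led by Icos, Il2ra and Il17a, with 7.47% called, and 3.09-fold (1.63 to 6.08) in cluster 24, led by the gamma delta T cell gene Trdc, with 10.5% called. EBA over IgG blood was 0.539-fold (0.460 to 0.631), not called. Monocyte-like cells held 20.1 CPM in EBA and 49.0 CPM in IgG blood (0.411-fold, 0.321 to 0.528, called lower; 0.574 relative to all genes, not called). Without the barcodes at or over the neutrophil-marker limit it was 32.8 against 45.0 CPM, 0.729-fold (0.485 to 1.08), which ended the call. Neutrophil-like cells had almost none: 4 UMIs in EBA blood and 2 in IgG blood.

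Il6ra, the receptor chain specific for IL-6, was the receptor gene with the highest level over all kept barcodes of blood. It stood there at 137 CPM in IgG and 89.3 CPM in EBA blood, against 43.3 and 14.6 CPM for Il6st. Neutrophil-like cells held 74.6 CPM (69.2 to 80.2) in EBA blood, 374 CPM (340 to 409) in IgG blood and 45.3 CPM (38.4 to 53.1) in EBA skin. EBA was 5.01-fold below IgG blood (4.44 to 5.64). All measured genes fell there by a median of 1.08 on the log2 scale, and relative to that shift the ratio was 0.423, still called lower. By cluster, Il6ra was 390 CPM in cluster 6 of IgG blood, and in EBA blood 103 CPM in cluster 8 and 48.6 CPM in cluster 18. Cluster 8, present in both, gave 0.417-fold (0.296 to 0.603; 27.2% of genes called), or 0.737 relative to its own median, which was not called. Immediate early and heat shock genes moved in the same direction in the whole class. All 14 were lower in EBA than in IgG blood, 9 of them relative to the shift, with a median log2 ratio of -2.53; their part in the Il6ra difference was not tested.

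Monocyte-like cells held 157 CPM of Il6ra in EBA and 372 CPM in IgG blood (0.421-fold, 0.385 to 0.459, called lower; 0.587 relative to all genes, not called). Without the barcodes at or over the neutrophil-marker limit, 114 EBA and 226 IgG barcodes gave 181 and 365 CPM, 0.494-fold (0.422 to 0.577), with 13.5% of genes called. In the same comparisons T cell-like cells stood at 92.2 and 168 CPM (0.548-fold, 0.488 to 0.615, not called) and B cell-like cells at 20.1 and 31.3 CPM (not called). NK cell-like cells held no Il6ra UMI in either library. Il6ra in EBA blood was below IgG blood in all 4 classes with measured levels, past the threshold in neutrophil-like and monocyte-like cells and, relative to all genes, in neutrophil-like cells alone.

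In skin, Il6ra was lower in fibroblast-like cells of EBA than of IgG skin, 25.9 against 64.7 CPM (0.401-fold, 0.348 to 0.463). The clusters differed in level: 47.5 and 85.7 CPM in cluster 16 (0.554-fold, not called) and 13.7 and 11.4 CPM in cluster 17 (not called), so neither cluster repeated the call. Keratinocyte-like cells read 36.4 and 72.9 CPM, 0.499-fold, or 0.541 relative to all genes and then not called. Of them, cluster 14, led by the wound keratins Krt6a, Krt6b and Krt16, held 29.1 and 29.5 CPM and made up 53.3% of keratinocyte-like barcodes in EBA and 2.19% in IgG skin. Cluster 13, led by the basal gene Krt15, held 50.2 and 82.7 CPM and made up 10.8% and 43.6%. Macrophage-like cells were at 66.0 and 74.2 CPM, not called. Lymphatic endothelial-like cells were higher in EBA skin, 30.9 against 7.64 CPM, from 23 and 3 UMIs. T cell-like cells had less in skin than in blood: 24.6 CPM in EBA skin (0.266 of EBA blood) and 26.3 CPM in IgG skin (0.156 of IgG blood).

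**Figure D3:**
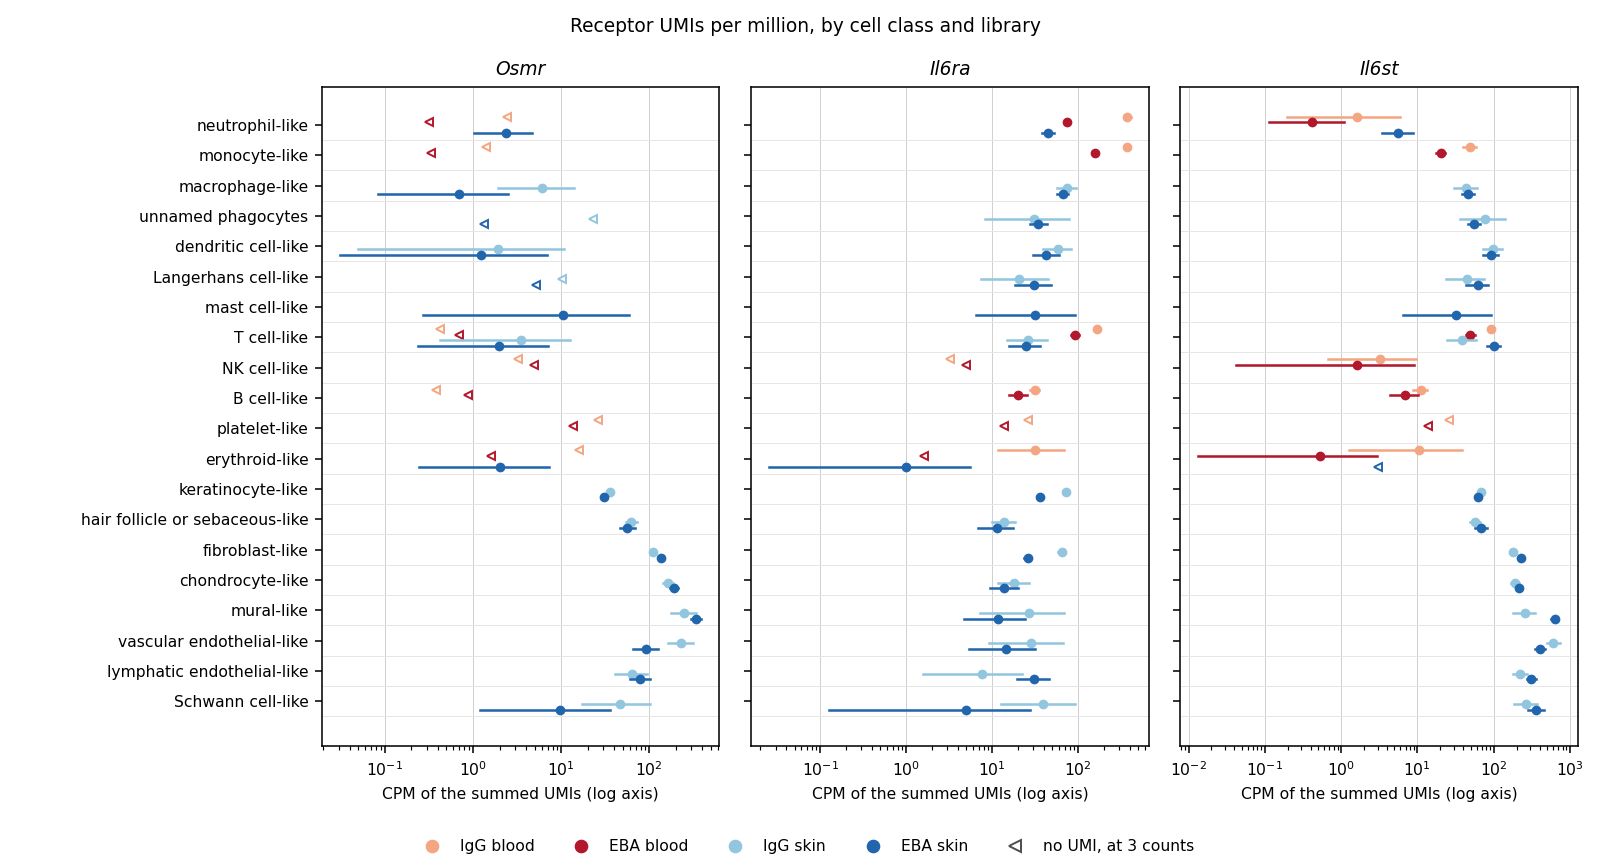
Levels of Osmr, Il6st and Il6ra by cell class and library (CPM on a log axis; points are class sums, lines 95% Poisson intervals, open triangles mark classes with no UMI at the level of 3 counts). Osmr is absent from blood classes and highest in mural-like cells, and Il6ra in blood is lower in EBA than in IgG in neutrophil-like cells (74.6 against 374 CPM) and monocyte-like cells (157 against 372 CPM).

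Stat3, which carries the signal to the nucleus, was detected in most classes. Neutrophil-like and T cell-like cells could be compared between tissues. In neutrophil-like cells it was 156 CPM in EBA skin and 123 CPM in EBA blood, 1.26-fold (1.14 to 1.40), not called. In T cell-like cells it was 841 CPM (786 to 900) in EBA skin and 67.8 CPM (60.3 to 76.1) in EBA blood, 12.4-fold (10.8 to 14.2), and 955 CPM in IgG skin and 75.5 CPM in IgG blood, 12.6-fold (11.2 to 14.3). In these comparisons 47.2% and 42.7% of all genes were called, and of the 14 genes of the immediate early and heat shock list, 13 and 14 were higher in skin; their part was not tested. Skin and blood T cells were also different clusters, 11 and 24 in skin and 0 in blood. Cluster 11, which both tissues held, stood at 728 and 420 CPM in EBA and IgG skin. In EBA and IgG blood it stood at 73.6 and 73.0 CPM, from 46 and 21 barcodes. The tissue difference was thus there within a cluster too. The leading genes of cluster 11 included both Il17a and Foxp3, so it may hold more than 1 kind of T cell.

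Between treatments, Stat3 in keratinocyte-like cells was at 176 and 182 CPM in EBA and IgG skin, in fibroblast-like cells at 275 and 379, in macrophage-like cells at 261 and 312, and in mural-like cells at 319 and 409, none of them called. Langerhans cell-like cells read 530 CPM in EBA (310 UMIs, 40 barcodes) and 265 CPM in IgG skin (78 UMIs, 36 barcodes), 2.002-fold (1.56 to 2.60), called higher with 10.2% of all genes called, and 1.64-fold relative to all genes, not called. In neutrophil-like cells of blood the ratio was 0.436 (0.387 to 0.493; 123 and 283 CPM), called lower, but 0.925 relative to the shift of all genes.

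Socs3, the feedback inhibitor, was higher in EBA than in IgG blood in lymphocytes. T cell-like cells held 128 CPM (118 to 139; 551 UMIs, 677 barcodes) in EBA and 20.4 CPM (17.2 to 24.1; 144 UMIs, 1219 barcodes) in IgG blood, 6.26-fold (5.20 to 7.58). Of all genes 8.14% were called there, 62 of them higher and 509 lower, and Socs3 was the 1 member called of 4 measured. B cell-like cells held 22.2 and 2.65 CPM, 8.36-fold (5.10 to 14.3), with 9.99% of genes called, 36 higher and 704 lower. Relative to the downward shift of all genes the ratios were 7.67 and 10.5. NK cell-like cells stayed low at 11.4 and 10.8 CPM, from 7 and 10 UMIs.

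The T cell difference was in a single cluster as well as across the class. Cluster 0, led by Cd8b1 and Lef1, read 140 and 20.7 CPM (6.74-fold, 5.54 to 8.26, with 9.23% of genes called), and it made up 80.1% and 90.1% of the class. Thinned to 1000 UMIs, 10.1% of 666 EBA barcodes (7.88 to 12.6%) and 1.81% of 1217 IgG barcodes held a Socs3 UMI, and without thinning 46.1% and 10.4%, at median depths of 6339 and 5649 UMIs. Erythroid-like barcodes of EBA blood held 0 Socs3 UMIs in 1876357 (253 barcodes, median depth 7347 UMIs). Neutrophil markers summed to 280 CPM in T cell-like barcodes of EBA blood and to 23.6 CPM in those of IgG blood, and to 379 and 20.5 CPM in B cell-like barcodes; 0 of 677 EBA T cell-like barcodes had 1% of UMIs from them. Erythroid markers summed to 9787 and 2642 CPM in T cell-like barcodes. Barcodes without a platelet-marker UMI gave 129 and 20.1 CPM of Socs3, so the difference was as large without them.

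Monocyte-like cells read 153 CPM of Socs3 in EBA and 68.3 CPM in IgG blood, 2.24-fold (1.89 to 2.68). Below the neutrophil-marker limit it was 142 and 62.1 CPM, 2.29-fold (1.79 to 2.93), so it did not rest on the barcodes with neutrophil transcripts. Cluster 3, led by Ccr2 and F13a1 of classical monocytes, gave 153 and 44.4 CPM (3.44-fold, 2.64 to 4.56; 22.0% of genes called) and made up 88.4% of EBA and 49.4% of IgG monocyte-like barcodes. Cluster 5, led by Cd300e and Ace of non-classical monocytes, gave 176 and 107 CPM, 1.65-fold (1.10 to 2.44, with 5.90% called), under the threshold. The cluster values include barcodes at or over the neutrophil-marker limit. Of the 387 EBA barcodes, 273 were at or over it and 45 lay in cluster 5, so most of the 273 were in cluster 3.

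Neutrophil-like cells held 143 CPM (136 to 151) of Socs3 in EBA blood, 241 CPM (215 to 271) in IgG blood and 161 CPM (148 to 175) in EBA skin. Neither EBA over IgG blood (0.594, or 1.26 relative to all genes) nor skin over blood (1.12, 1.01 to 1.24) was called. The blood level was an average of unlike clusters: 241 CPM in cluster 8 and 57.6 CPM in cluster 18 of EBA blood, 248 CPM in cluster 6 and 193 CPM in cluster 8 of IgG blood. Within cluster 8, EBA over IgG was 1.25-fold (0.861 to 1.89), not called, and 2.21-fold relative to all genes of that comparison, which was called. The 708 EBA blood barcodes with a platelet-marker UMI held 159 CPM and the 106 without held 32.5 CPM. In IgG blood the order was the other way, 228 CPM in 381 barcodes with and 334 CPM in 74 without. Against the EBA blood barcodes without a platelet-marker UMI, skin was higher by 2.32 on the log2 scale, so whether skin and blood neutrophils differ in Socs3 depends on which blood cells are taken.

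In 4 of the skin classes of over 100 barcodes per library, Socs3 did not pass the threshold. Fibroblast-like cells held 260 and 236 CPM in EBA and IgG skin (1.10-fold, 1.04 to 1.17), keratinocyte-like cells 49.0 and 44.7 CPM (1.10-fold, 1.04 to 1.16), macrophage-like cells 210 and 193 CPM and chondrocyte-like cells 208 and 202 CPM. None was called. Within fibroblast-like cells, cluster 17 was at 257 and 130 CPM (1.98-fold, 1.73 to 2.29), just under the threshold, and cluster 16 at 264 and 278 CPM. In keratinocyte-like cells, cluster 14 was at 50 CPM (47.2 to 52.9) and 26.9 CPM (21.5 to 33.3) and cluster 13 at 113 and 107 CPM.

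Smaller skin classes differed in both directions. Socs3 was lower in EBA in Schwann cell-like cells (349 against 882 CPM, 0.395-fold, 0.290 to 0.537, with 8.83% of genes called) and in lymphatic endothelial-like cells (339 against 746 CPM, 0.455-fold, 0.383 to 0.540, with 9.09% called). It was higher in hair follicle or sebaceous-like cells (72.2 against 32.8 CPM, 2.20-fold, 1.68 to 2.89) and in mural-like cells (448 against 221 CPM, 2.03-fold, 1.41 to 3.01), the latter 1.86-fold relative to all genes and then not called. Mural-like cells were also the class with the highest Osmr level among those of 20 or more barcodes. In Langerhans cell-like cells Socs3 was 63.3 against 23.8 CPM from 37 and 7 UMIs, 2.66-fold (1.17 to 7.08), called higher, and 2.18-fold relative to all genes, not called. Each of these classes had 28 to 193 barcodes per library. T cell-like cells of skin were at 40.3 CPM in EBA and 84.1 CPM in IgG, 0.479-fold (0.308 to 0.743), called lower. That call was not seen within clusters: 24.5 and 33.4 CPM in cluster 11 (0.733, 0.295 to 2.06) and 101 and 114 CPM in cluster 24 (0.885, 0.502 to 1.52), where cluster 11 made up 74.2% of T cell-like barcodes in EBA and 33.1% in IgG skin. Between tissues, Socs3 in T cell-like cells of skin was 0.315 times its blood level in EBA mice (0.223 to 0.433). In IgG mice it was 4.11 times (2.90 to 5.74), and both were called. In these comparisons 47.2% and 42.7% of all genes were called. They also set different clusters against each other: cluster 0 made up 80.1% of the class in EBA blood and 90.1% in IgG blood. Cluster 24 made up 66.2% in IgG skin, and the part of the clusters was not tested.

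**Figure D4:**
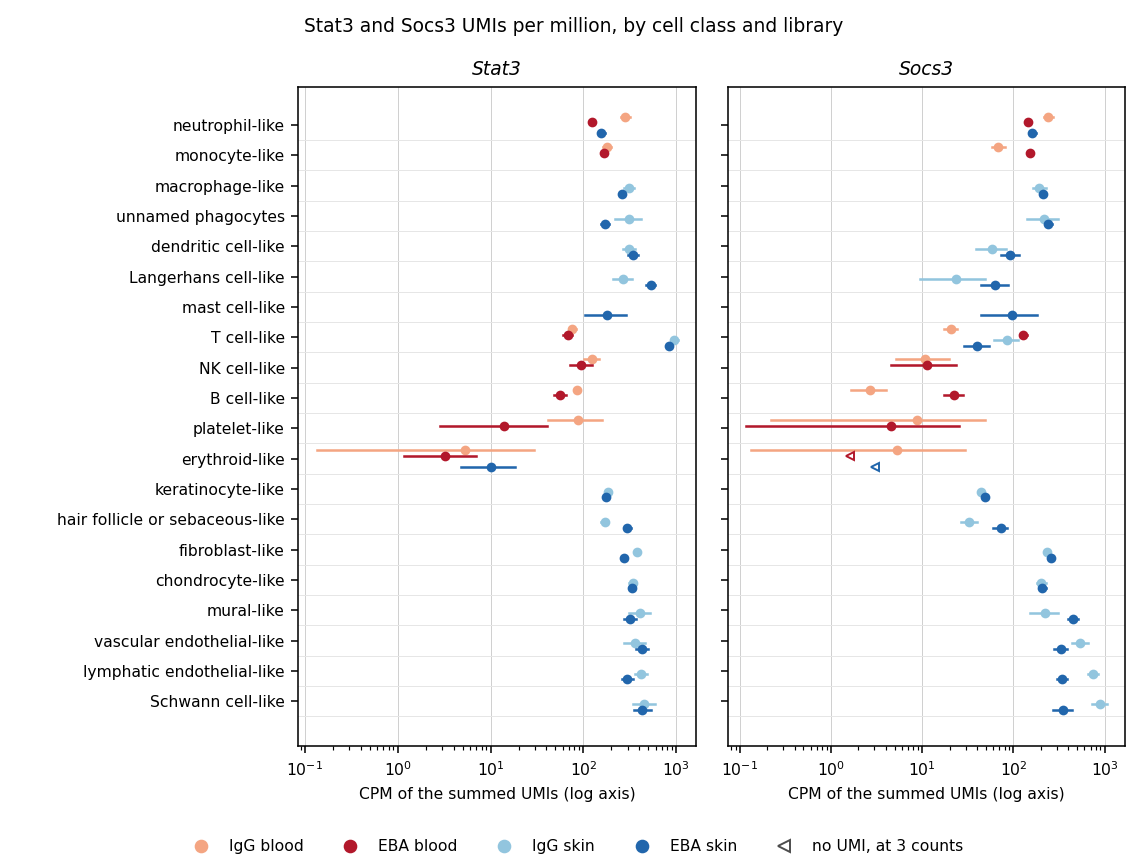
Levels of Stat3 and Socs3 by cell class and library (CPM on a log axis; points are class sums, lines 95% Poisson intervals, open triangles mark classes with no UMI at the level of 3 counts). Socs3 in blood T cell-like cells is 128 CPM in EBA and 20.4 CPM in IgG, while Stat3 in the same cells differs by tissue (841 CPM in EBA skin, 67.8 CPM in EBA blood).

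The other genes of the pathway were read from lists, and none of the lists is a test. Among 20 genes known as STAT3 targets, fibroblast-like cells had 5 higher and 0 lower in EBA than in IgG skin of 18 measured, though the list's median log2 ratio was -0.28 against -0.02 for all genes, of which 3.03% were higher and 3.41% lower. The 5 were the acute-phase genes Hp (haptoglobin, 749 and 6.47 CPM, 116-fold, 84.4 to 164), Saa3 (serum amyloid A, 1646 and 188 CPM, 8.76-fold) and Serpina3n (394 and 167 CPM), the alarmin Il33 (82.7 and 13.9 CPM) and the protease inhibitor Timp1 (931 and 313 CPM). Keratinocyte-like cells had 2 higher and 0 lower of 13, Il33 (189 and 62.1 CPM) and the interleukin 4 receptor chain Il4ra (29.7 and 14.1 CPM), where 4.00% of all genes were higher. In both classes 0 of 14 immediate early and heat shock genes was called. Fibroblast-like cells thus had higher acute-phase transcripts in EBA skin beside a Socs3 level of 1.10-fold over the class. By cluster, the log2 ratio of Socs3 was 0.99 in cluster 17 and -0.071 in cluster 16. The acute-phase genes are not split by cluster here.

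Blood and skin leukocytes differed in these lists. In monocyte-like cells 6 of 15 STAT3 targets were higher in EBA blood and 1 was lower, against 6.62% and 18.3% of all genes. Below the neutrophil-marker limit, Saa3 was 857 CPM in EBA and without a UMI in IgG (at least 501-fold higher at 3 counts per library), Hp 1147 and 410 CPM, and Lrg1, another acute-phase gene, 298 CPM against 2 UMIs, while Bcl2l1 was no longer called. T cell-like cells of blood had 1 higher and 1 lower of 10. The higher was Bcl3 (14.2 and 6.25 CPM) and the lower Tnfaip3, an NF-kB inhibitor, at 9.99 and 36.5 CPM. B cell-like cells had 0 called of 10. The median log2 ratio was -0.03 in T and -0.18 in B cell-like cells, against -0.29 and -0.33 for all genes.

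In neutrophil-like cells, 11 of 17 STAT3 targets were higher and 3 lower in EBA skin than in EBA blood, with a median log2 ratio of 2.40 against 0.25 for all genes, of which 55.1% were called (32.9% higher and 22.2% lower). They included Saa3 (485 and 0.421 CPM, 4 UMIs in blood), Tnfaip3 (435 and 1.58 CPM), the kinase gene Pim1 (1554 and 129 CPM) and Hif1a (482 and 61.7 CPM). Of the JAK and STAT genes, Jak2 (171 and 26.9 CPM) and Tyk2 were higher in skin, while Stat5b (13.6 and 41.0 CPM) and Stat2 (3.85 and 13.6 CPM) were lower. The STAT-induced inhibitor Cish (32.9 and 2.52 CPM) and 3 others of 6 negative regulators were higher. Of the sheddases, which cut the IL-6 receptor from the cell surface, Adam17 was higher (87.0 and 16.2 CPM) and Adam10 lower (13.6 and 35.5 CPM). EBA over IgG blood, 1 STAT3 target was higher, Lrg1 (1661 and 422 CPM), and 7 of 14 were lower, or 3 higher and 1 lower relative to the shift of all genes. The called share of that list, 8 of 14, was near the 58.6% of all genes called there.

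Skin T cell-like cells had 5 of 8 JAK and STAT genes higher in EBA than in IgG skin and 0 lower, among them Stat5a (186 and 40.3 CPM) and Stat5b (130 and 28.03 CPM); relative to all genes 4 were higher. Of all genes 17.6% were called there, 10.4% higher. Within clusters the count was smaller, 2 of 8 higher in cluster 11 and 0 of 7 in cluster 24. Socs1, a sister inhibitor of Socs3, was lower (67.8 and 154 CPM). The list followed a class in which cluster shares had changed, as above. Macrophage-like cells had 4 STAT3 targets higher and 2 lower of 17, against 4.44% and 4.79% of all genes; the chemokine gene Ccl2 fell from 1385 to 375 CPM, and Clcf1, another ligand that signals through gp130, stood at 28.2 CPM in EBA and 9.58 CPM in IgG skin.

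**Figure D5:**
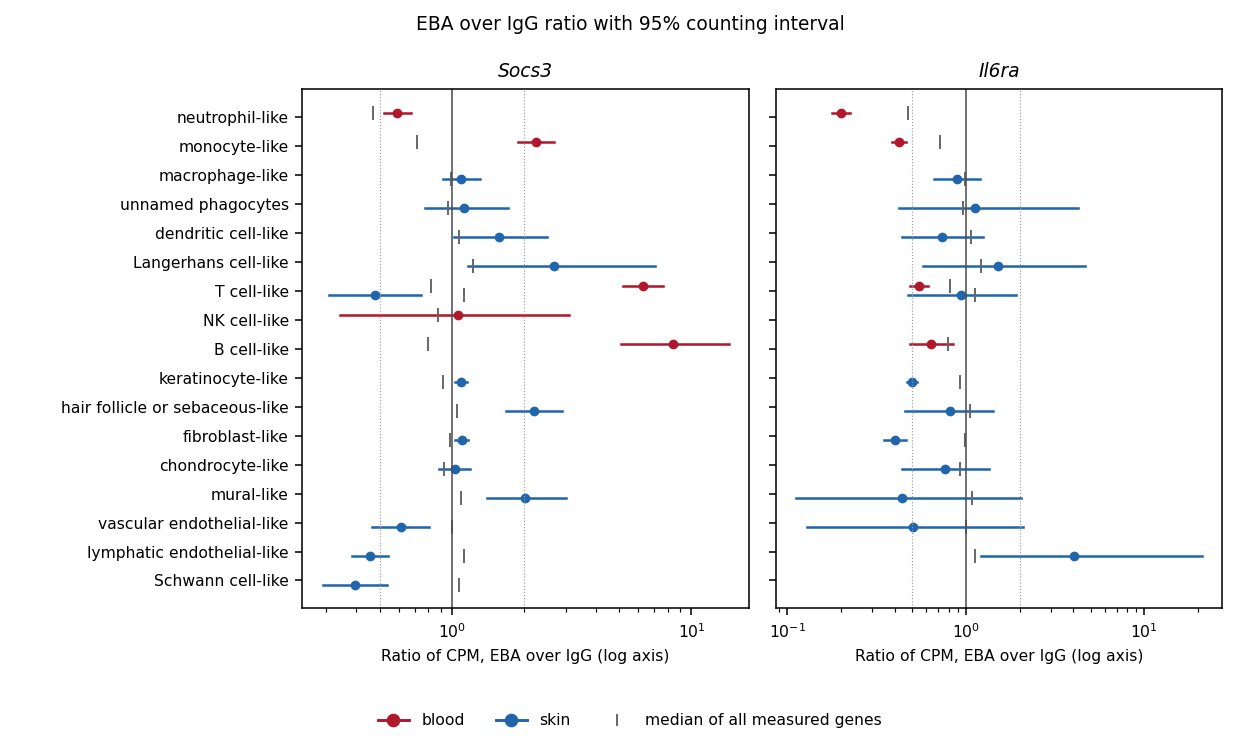
Ratios of Socs3 and Il6ra, EBA over IgG, by cell class (log axis; red for blood, blue for skin; lines are exact 95% intervals of counting error, dotted lines mark 0.5 and 2, and the grey tick is the median ratio of all measured genes in that comparison). Socs3 lies at 6.26 in T and 8.36 in B cell-like cells of EBA over IgG blood and at 1.10 in fibroblast-like and keratinocyte-like cells of skin, and Il6ra is lowest in neutrophil-like cells of blood.

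The genes whose levels ran most like the members across 43 class-by-library sums were found by Pearson's r of log2(CPM + 1). These sums share libraries and clusters, so r is a description. For Osm they were the receptor genes Lilr4b (r = 0.93) and Lilrb4a (0.88), the Fc receptor gene Fcgr3 (0.87) and the chemokine receptor gene Ccr1 (0.87). For Osmr they were the matrix protease gene Adamts1 (0.96), Ptprg (0.95), Nbl1 (0.95) and Epn2 (0.94). For Socs3 they were Sbno2 (0.92), Sntb2 (0.88), Fndc3b (0.85) and App (0.84), and for Il6 Gm13889 (0.85), Procr (0.83), Adamts9 (0.83) and Adamts4 (0.82).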

How the data were processed

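Values are the deposited UMI counts of each gene in each barcode. Per the submitters' processing notes, the build was mm10 and the tools were Cell Ranger 3.0.0 and Seurat 3.0.0 and 3.1.0. How barcodes were filtered before deposit is not given in the sources used here. Barcodes with under 200 genes or over 10% mitochondrial UMIs were removed, and the highest 0.8% per 1000 barcodes by Scrublet score (163 and 94 in IgG and EBA blood, 228 and 147 in IgG and EBA skin) as doublets, because Scrublet's own limit marked 108, 14, 0 and 2. In the same order, 4349, 3325, 5106 and 4134 barcodes remained, and their median depth was 3743, 5780, 10648 and 9087.5 UMIs. Clustering in scanpy 1.11.5 (10000 UMIs per barcode, log1p, 2000 variable genes, 30 components, 15 neighbours, Leiden resolution 1, seed 0, no integration) gave 31 clusters, 2 of which (12 and 25) were split further, and 144 markers of 23 cell types named them; names are rebuilt, not the authors'. Intervals are Poisson for CPM, Clopper-Pearson for shares and exact conditional for ratios, with a floor of 3 counts. All members were named, and at most 5 called genes a list and comparison with 20 CPM or more, by the interval bound farthest from 1. Members and lists were chosen with earlier results of these data known. The ratio step was tested on simulated data. Gene positions are from GENCODE M21, promoters from RefSeq. Results for some genes are not reported here.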

Additional observations from a re-analysis of the deposited data

Results flagged for a closer look

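Socs3 in T cell-like cells moved in opposite directions in the 2 tissues. EBA over IgG, the log2 ratio was 2.65 in blood and -1.06 in skin, from 1 library per group, so the difference between tissues was not tested. In skin the values within clusters 11 and 24 were 0.733 and 0.885 as ratios, neither called, and the share of cluster 11 differed between the libraries (74.2% and 33.1%).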

How the results depend on the processing

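No paired analysis was possible because each group was 1 library. The results re-run under other settings were 10 log2 ratios and 2 shares, and none reversed a call. Taken relative to the median of all genes, the log2 ratio went from 1.70 to 1.44 for Osm and from 0.16 to -0.090 for Socs3 in neutrophil-like cells of EBA skin over blood, from -2.32 to -1.24 for Il6ra in neutrophil-like cells of blood, from 0.13 to 0.25 for Socs3 in keratinocyte-like cells, from 2.65 to 2.94 for Socs3 in T and from 1.17 to 1.65 in monocyte-like cells. Without platelet-marker barcodes the first 3 were 2.02, 2.32 and -3.75; 106 of 814 EBA blood barcodes then remained. A mitochondrial limit of 5% gave 0.46 for keratinocyte-like Socs3, 3.91 against 3.06 for Socs3 in B cell-like cells, 40.4% against 36.9% for the neutrophil-like share of Osm and 65.1% against 49.7% for the fibroblast-like share of Il6, which was 48.3% at a limit of 20% and 51.3% with barcodes named by marker UMIs alone; that naming gave -2.10 for neutrophil-like Il6ra. By cluster, 16 and 17, fibroblast-like Socs3 was -0.071 and 0.99 (0.14 for the class), Il6 1.04 and 3.02 (0.90), and Osmr 0.78 in cluster 17 (0.31); monocyte-like Socs3 was 1.78 in cluster 3 and 0.73 in cluster 5. The cause of these shifts was not tested. With 1 CPM in place of 10, called STAT3 targets went from 2 to 7 in keratinocyte-like cells. Thinned to 500 UMIs, Osm was in 6.26% and 1.97% of neutrophil-like barcodes of EBA skin and blood, and Socs3 in 6.65% and 0.902% of T cell-like barcodes of EBA and IgG blood. The cluster, platelet and neutrophil-marker settings, the removal of the barcode with the most UMIs (which moved none of 10 results) and all settings for Socs3 in blood were chosen after seeing the data. With 1 pooled library a group, no value shows spread between mice, and classes under 50 barcodes rest on few cells.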
